A study of Mus musculus with 19 samples.

Results

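Haematopoietic niche factors are the secreted and membrane proteins through which stromal cells of bone hold and feed blood stem cells and progenitors. The 8 genes described here were chosen by name, with earlier results of these data known. Their counts beside shares of all genes are therefore descriptions. The genes are Cxcl12, Kitl, Vcam1, Lepr, Il7, Angpt1, Csf1 and Ebf3, and every probe set of the array that carries 1 of these symbols was taken. They account for 8 of 18193 measured genes and for 25 of 45037 probe sets. Where a gene has several probe sets, the brightest of them on average over the neonatal arrays stands for the gene, and the others are described beside it.

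In bone marrow the chemokine CXCL12 draws cells that carry the receptor CXCR4 and keeps stem cells and lymphoid progenitors in place, while KIT ligand, encoded by Kitl, sustains the same cells through the receptor KIT. Cells that make both factors lie along marrow vessels as reticular, pericyte-like stroma, and in adult mice most of them carry the leptin receptor and the transcription factor EBF3. VCAM1 on such stroma binds the α4 integrins of blood cells, IL7 supports lymphoid progenitors, angiopoietin 1 acts on the receptor TIE2 (gene Tek), and CSF1 supports monocytes, macrophages and osteoclasts through CSF1R.

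The 18 neonatal arrays hold RNA of sorted cells from the fore and hind limbs of mice at postnatal day 3, with 3 arrays for each of 6 populations. The mice are given as wild-type in the sample fields and as GFP-labelled in the growth protocol, and each description names a pooled litter, so single animals cannot be separated. All populations share a gate that is CD45-, Ter119-, Tie2- and AlphaV+, which leaves out blood cells and Tie2+ cells and keeps cells with the integrin αV. Within it the Thy+ cells form the populations Thy+6C3-CD105+ and Thy+6C3-CD105-, the cells with 6C3, the antigen encoded by Enpep, form Thy-6C3+CD105+ and its counterpart Thy-6C3+CD105-, and the cells with neither form Thy-6C3-CD105+ and likewise Thy-6C3-CD105-. CD105 is encoded by Eng. Replicates 2 and 3 of Thy-6C3+CD105- carry titles that say Thy+ in place of Thy-, although their population field says Thy-. One further array is labelled adult Thy+6C3+CD105+, with sternum and ear in its source field and limbs in its tissue field. It is a single array of another age and gate, and it entered no test. Nothing in the labels says whether replicates came from separate litters, so the p-values below measure only the spread between these arrays.

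Array levels are log2 signals after quantile normalization of the deposited log2 values, so a difference of 1 is a doubling. The median gene had a mean level of 6.76, which serves as a landmark for low signal. Transcripts of the sorted antigens followed the Thy and 6C3 gates: Thy1 lay between 9.99 and 10.47 on the 6 Thy+ arrays and between 4.96 and 5.95 on the 12 Thy- arrays, and Enpep lay between 10.69 and 11.24 on the 6 6C3+ arrays and between 6.20 and 8.83 on the other 12. Both disputed arrays of Thy-6C3+CD105- had Thy1 at 5.78 and 5.95. Eng was less cleanly split, from 8.17 to 8.83 on CD105+ arrays and from 6.65 to 8.58 on CD105- arrays, the highest of the latter being replicate 3 of Thy+6C3-CD105-. The level of Ptprc (CD45) stayed between 3.83 and 5.23 on the 18 arrays. In sorted bulk cells, fewer cells that make a transcript and less of it per cell cannot be told apart.

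Proximal upstream sequence was at hand for 5 of the 8 genes in the RefSeq table for the build GRCm38.p6, and it is shown for Cxcl12, Kitl and Lepr because these 3 had the steepest rises described below. Each line gives the 250 bases before an annotated start, 5′ to 3′ on the strand of the gene, and all 4 windows lie on the plus strand. They are chr6:117168285-117168534 for Cxcl12, chr10:100015571-100015820 for Kitl, and chr4:101717157-101717406 and chr4:101717656-101717905 for the first and second listed start of Lepr. Capitals mark matches on either strand to 3 core promoter motifs. The GC box, spelled GGGCGG, is bound by SP1 family factors. The TATA box is searched as TATAAA and sets the start of transcription at many regulated genes. The CCAAT box is bound by NF-Y.
Cxcl12: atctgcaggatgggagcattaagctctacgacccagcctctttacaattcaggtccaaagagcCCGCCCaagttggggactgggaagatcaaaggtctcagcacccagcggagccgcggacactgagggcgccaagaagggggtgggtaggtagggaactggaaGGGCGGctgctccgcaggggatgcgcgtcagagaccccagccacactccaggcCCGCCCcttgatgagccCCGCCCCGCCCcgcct
Kitl: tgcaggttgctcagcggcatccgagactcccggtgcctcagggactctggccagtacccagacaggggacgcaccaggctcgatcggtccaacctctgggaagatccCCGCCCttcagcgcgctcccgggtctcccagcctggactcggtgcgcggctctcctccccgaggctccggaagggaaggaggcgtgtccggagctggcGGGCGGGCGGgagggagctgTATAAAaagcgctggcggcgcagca
Lepr, first start: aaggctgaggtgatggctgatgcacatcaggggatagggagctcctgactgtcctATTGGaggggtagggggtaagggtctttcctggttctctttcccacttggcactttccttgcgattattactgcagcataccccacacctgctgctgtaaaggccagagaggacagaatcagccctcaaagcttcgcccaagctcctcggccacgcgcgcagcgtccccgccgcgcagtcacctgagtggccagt
Lepr, second start: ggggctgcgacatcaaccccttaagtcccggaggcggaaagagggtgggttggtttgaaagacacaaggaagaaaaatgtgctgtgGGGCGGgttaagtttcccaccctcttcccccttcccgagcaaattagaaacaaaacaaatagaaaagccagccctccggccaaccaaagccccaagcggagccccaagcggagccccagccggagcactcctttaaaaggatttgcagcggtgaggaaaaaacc
The Cxcl12 window holds 5 GC boxes, of which the last pair overlaps, and it holds neither a TATA box nor a CCAAT box. The Kitl window holds 3 GC boxes, a pair of them overlapping, and a TATA box that begins 25 bases before the start. The first Lepr window holds a CCAAT box alone and the second a GC box alone. Of 32851 windows of 250 bases in the table, 32.7% hold a GC box, 12.4% a TATA box and 33.8% a CCAAT box. A search for a hypoxia response core (ACGTG, in 16.6% of windows) and a forkhead site (GTAAACA, 3.17%) found no match in the windows of these genes or of Csf1 and Ebf3. An RBPJ site (TGGGAA, 21.6%) matched once in each of the 4 windows shown and in neither of those of Csf1 and Ebf3. A link of these matches to the levels was not tested. GC content was 64.4% for Cxcl12, 69.2% for Kitl, and 58.4% and 54.8% for the starts of Lepr, against a median of 52.4% over all windows. A match is a string of letters and not evidence of binding.

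Across the 6 populations the niche factors separated into 3 kinds. Cxcl12, Kitl, Vcam1 and Lepr had their highest level in Thy+6C3-CD105+ cells, and every array of that population lay above every array of the other 5. Such complete separation upward in Thy+6C3-CD105+ held for 4 of the 8 niche genes and for 1.83% of all genes. Angpt1 had the reverse form, with every array of Thy-6C3+CD105- below all others, which held for 1 of the 8 and for 0.0770% of all genes. Il7, Csf1 and Ebf3 overlapped between most populations. By the moderated F-test of limma over the 6 populations with Benjamini-Hochberg adjustment, 4 of the 8 passed, against 10.1% of all genes: Vcam1 (adjusted p = 1.96e-06), Cxcl12 (adjusted p = 3.97e-05), Angpt1 (adjusted p = 0.00231) and Kitl (adjusted p = 0.0453). Lepr had an adjusted p of 0.0818, Ebf3 0.124, Csf1 0.182 and Il7 0.554 in this test. Leaving out a single array raised Kitl above the threshold in 12 of 18 cases.

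**Figure D1:**
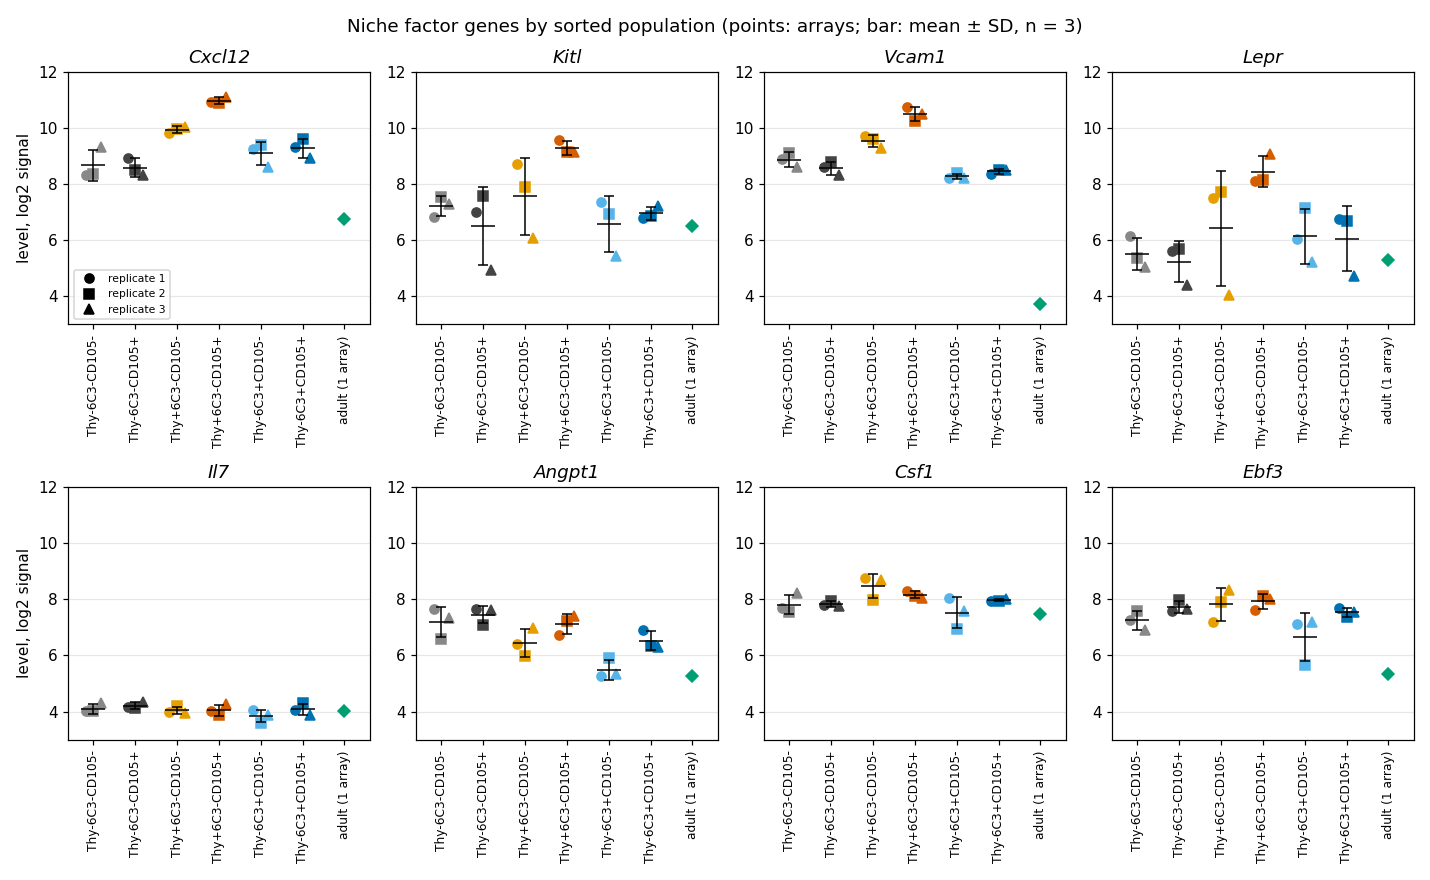
Level (log2 signal, y axis) of the 8 niche factor genes on each neonatal array by population (x axis), with circles, squares and triangles for replicates 1, 2 and 3, black bars for the mean ± SD of 3 arrays, and a diamond for the single adult array. The 3 Thy+6C3-CD105+ points sit above all others for Cxcl12, Kitl, Vcam1 and Lepr, the Thy-6C3+CD105- points lie lowest for Angpt1, and Il7 stays between 3.60 and 4.34 on every neonatal array.

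Cxcl12, the chemokine, was at 10.92, 10.89 and 11.11 on the 3 arrays of Thy+6C3-CD105+. It was at 9.82, 9.97 and 10.04 in Thy+6C3-CD105-, and the Thy+ populations overlapped neither with each other nor with the rest. In Thy-6C3+CD105+ the levels were 9.31, 9.59 and 8.92, while Thy-6C3+CD105- cells had 9.27, 9.40 and 8.61. The double negative gates had 8.32, 8.37 and 9.31 without CD105, whereas with CD105 they had 8.95, 8.50 and 8.31. These 4 Thy- populations overlapped from one to the next in the order of their means, so no order among them can be read. The adult array stood at 6.75, below every neonatal array.

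The comparison of Thy+6C3-CD105+ with Thy-6C3-CD105+, here the Thy step in CD105+ cells, asks what goes with Thy where 6C3 and CD105 are the same. Cxcl12 was 2.39 ± 0.27 (log2, SE) higher in the Thy+ cells, 5.23-fold, with a limma adjusted p of 1.43e-05 (3 arrays against 3). The same step in CD105- cells gave 1.28 ± 0.27 (adjusted p = 0.00429). Against the 6C3+ population with the same CD105 state, Cxcl12 was 1.70 ± 0.27 higher in Thy+6C3-CD105+ (adjusted p = 0.00092) and differed by 0.85 ± 0.27 among CD105- cells, which missed the threshold (adjusted p = 0.116). Within Thy+ cells, CD105+ exceeded CD105- by 1.03 ± 0.27 without overlap, yet with an adjusted p of 0.0804. That comparison passed in 2 of 10 other settings, the values as deposited (1.42, adjusted p = 0.0466) and array weights (1.03, adjusted p = 0.00735). It also passed without replicate 3 of Thy-6C3-CD105- or of Thy-6C3+CD105- (adjusted p = 0.0411 and 0.0480). The CD105- Thy call was lost in 3 of 10 other settings, among them the values as deposited (0.89, adjusted p = 0.0654). The other losses were in fits on part of the arrays that leave 1 array in a compared population (1.68 and 0.98).

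The other probe sets of Cxcl12 did not show this gradient. The probe set 1417574_at, with a mean level of 8.42, was at 8.57, 8.83 and 8.78 in Thy+6C3-CD105+ and at 8.39, 8.36 and 8.27 in Thy-6C3-CD105+, a difference of 0.39 ± 0.18 that did not pass among all probe sets (adjusted p = 0.402). In Thy-6C3+CD105+ cells this probe set read 8.63, 8.92 and 8.33, overlapping Thy+6C3-CD105+. The dim probe set 1439084_at changed by -0.17 ± 0.23. With the mean of the 3 probe sets as the gene's level the Thy step in CD105+ cells was 0.87 (adjusted p = 0.000935).

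Kitl, which encodes the ligand of KIT, was at 9.58, 9.13 and 9.13 in Thy+6C3-CD105+. In Thy+6C3-CD105- the 3 arrays spread over 8.73, 7.88 and 6.07. The other 4 populations ranged from 4.93, on replicate 3 of Thy-6C3-CD105+, to 7.57, on replicate 2 of that same population, and the adult array was at 6.50. Thus Thy+6C3-CD105+ was the one population clear of the others, and below it neighbouring populations overlapped throughout.

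Kitl rose by 2.77 ± 0.64 in the Thy step of CD105+ cells, 6.84-fold (adjusted p = 0.0105), with a 95% interval from 1.43 to 4.12. That call rested on the low replicate 3 of Thy-6C3-CD105+: without it the change was 1.99 (adjusted p = 0.0764). In CD105- cells the Thy step was 0.34 ± 0.64 (adjusted p = 0.724), and it ranged from -0.24 without replicate 1 of Thy+6C3-CD105- to 1.09 without replicate 3 of it, passing in neither case. Against 6C3+ cells of the same CD105 state Kitl was higher by 2.32 ± 0.64 in CD105+ cells, which missed the threshold at an adjusted p of 0.0711, although no arrays overlapped. Without replicate 3 of Thy-6C3-CD105+, of Thy+6C3-CD105- or of Thy-6C3+CD105-, or without replicate 1 of Thy+6C3-CD105-, that comparison passed, with adjusted p from 0.0212 to 0.0450. It also passed in 6 of 10 other processing settings, among them the replicate number as a block (adjusted p = 0.0233) and the values as deposited (2.41, adjusted p = 0.0326). The other 3 probe sets of Kitl lay lower, at mean levels from 4.17 to 5.33, and changed by 0.22 to 0.69 in the Thy step without passing.

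Lepr, the leptin receptor gene, was at 8.13, 8.13 and 9.08 in Thy+6C3-CD105+. In Thy+6C3-CD105- it was at 7.49, 7.71 and 4.05, a spread of 2.05 (SD, n = 3) set by replicate 3. Replicate 3 was also the lowest in the 4 Thy- populations, at 4.41 to 5.21 against 5.36 to 7.16 for replicates 1 and 2. The adult array read 5.30.

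Lepr rose by 3.21 ± 0.78 in the Thy step of CD105+ cells, 9.24-fold (adjusted p = 0.0154), the highest log2 change of the 8 genes in any step. The call was lost without replicate 3 of Thy-6C3-CD105+ (2.79, adjusted p = 0.0936) and without replicate 3 of Thy+6C3-CD105+ (2.89, adjusted p = 0.0841). In CD105- cells the same step was 0.90 ± 0.78 (adjusted p = 0.418), and the low replicate 3 of Thy+6C3-CD105- set this value too: without it the step was 2.09 and passed (adjusted p = 0.0409), whereas without replicate 1 or 2 of that population it was 0.37 or 0.26. It also passed with array weights (1.72, adjusted p = 0.0494). The neonatal arrays fell apart by the signal of the spiked poly-A control transcripts into 11 with high and 7 with low signal. This step was -0.27 on the high poly-A arrays, where it rests on 2 arrays, the low replicate 3 among them, against 1. On the low ones it was 2.29 and rests on 1 array against 2. Thy+6C3-CD105+ exceeded Thy-6C3+CD105+ by 2.39 ± 0.78 (adjusted p = 0.173), a comparison that passed without replicate 3 of Thy+6C3-CD105- (adjusted p = 0.0187). It passed as well with the replicate number as a block (adjusted p = 0.0489), the compared populations only (adjusted p = 0.0197), array weights (adjusted p = 0.00211) and the mean of probe sets (1.27, adjusted p = 0.0225). Without replicate 3 of Thy-6C3+CD105+ it was 1.72 (adjusted p = 0.728).

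For Lepr the rise was shared by other probe sets. Of its 4 probe sets 3 passed in the Thy step of CD105+ cells among all probe sets, the brightest with 3.21, 1425644_at with 2.33 ± 0.46 and 1425875_a_at with 0.73 ± 0.19, while 1425873_a_at changed by 0.25. The probe set 1425644_at was at 5.50, 6.77 and 7.09 in Thy+6C3-CD105+ and at 4.41, 4.15 and 3.82 in Thy-6C3-CD105+. It also passed against Thy-6C3+CD105+ (1.92 ± 0.46, adjusted p = 0.0448), where the brightest did not. Both probe sets had their highest mean in Thy+6C3-CD105+.

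Vcam1, the adhesion molecule bound by α4 integrins, was at 10.76, 10.24 and 10.50 in Thy+6C3-CD105+ and at 9.70, 9.61 and 9.29 in Thy+6C3-CD105-, with a gap between these populations and another below them. The double negative populations lay at 8.89, 9.12 and 8.59 (Thy-6C3-CD105-) and at 8.61, 8.77 and 8.32 (Thy-6C3-CD105+). The 6C3+ populations were lowest, from 8.36 to 8.52 with CD105 and from 8.21 to 8.39 without it. The adult array was at 3.72, far under the neonatal range of 8.21 to 10.76.

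Vcam1 rose by 1.93 ± 0.19 in the Thy step of CD105+ cells, 3.82-fold (adjusted p = 4.35e-06), and by 0.66 ± 0.19 in that of CD105- cells (adjusted p = 0.0273). It exceeded the 6C3+ population by 2.04 ± 0.19 among CD105+ cells (adjusted p = 5.45e-06) and by 1.26 ± 0.19 among CD105- cells (adjusted p = 0.00122). Within Thy+ cells the CD105+ fraction was higher by 0.97 ± 0.19 (adjusted p = 0.0191), the only call of the 8 in a CD105 step. The CD105- Thy call was lost without replicate 1 or 3 of Thy-6C3-CD105- or replicate 1 or 2 of Thy+6C3-CD105- (0.53 to 0.68, adjusted p from 0.0586 to 0.117), and on the values as deposited it fell to 0.25 (adjusted p = 0.441). It was lost in 4 of 10 other settings, among them the compared populations only (0.66, adjusted p = 0.149). Also among them were the high (0.55) and low (0.85) poly-A arrays, each with 1 array in a compared population. The CD105 call was lost without replicate 1 (0.84, adjusted p = 0.0722) or 3 (0.97, adjusted p = 0.0997) of Thy+6C3-CD105+ or replicate 3 of Thy+6C3-CD105- (0.85, adjusted p = 0.0806). Of 10 other settings 4 lost it, among them the mean of probe sets (0.58, adjusted p = 0.0808), the compared populations only (adjusted p = 0.129) and the high poly-A arrays (0.92, adjusted p = 0.170). The low poly-A arrays, 1 against 1, gave 1.06 and were the other. The call against 6C3+ CD105- cells was lost in 5 of 10 other settings. Among them were the values as deposited (0.91, adjusted p = 0.0541), the compared populations only (adjusted p = 0.109) and the high poly-A arrays (1.15, adjusted p = 0.0518). Grouping by title, which leaves 1 array in Thy-6C3+CD105-, gave 1.31 and was another. The low poly-A arrays, 1 against 1, gave 1.49 and were the last.

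A second probe set of Vcam1, 1451314_a_at, was at 7.18, 7.66 and 7.81 in Thy+6C3-CD105+ and between 6.17 and 6.55 in the CD105+ populations without Thy. It passed in the Thy step of CD105+ cells (1.17 ± 0.23) and against Thy-6C3+CD105+ (1.17 ± 0.23). The third, 1415989_at, changed by 0.83 ± 0.27 in that Thy step and did not pass. Over all 25 probe sets of the niche genes, 7 passed in that step, against 3.88% of all probe sets, and 4 passed against Thy-6C3+CD105+, against 1.33%.

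**Figure D2:**
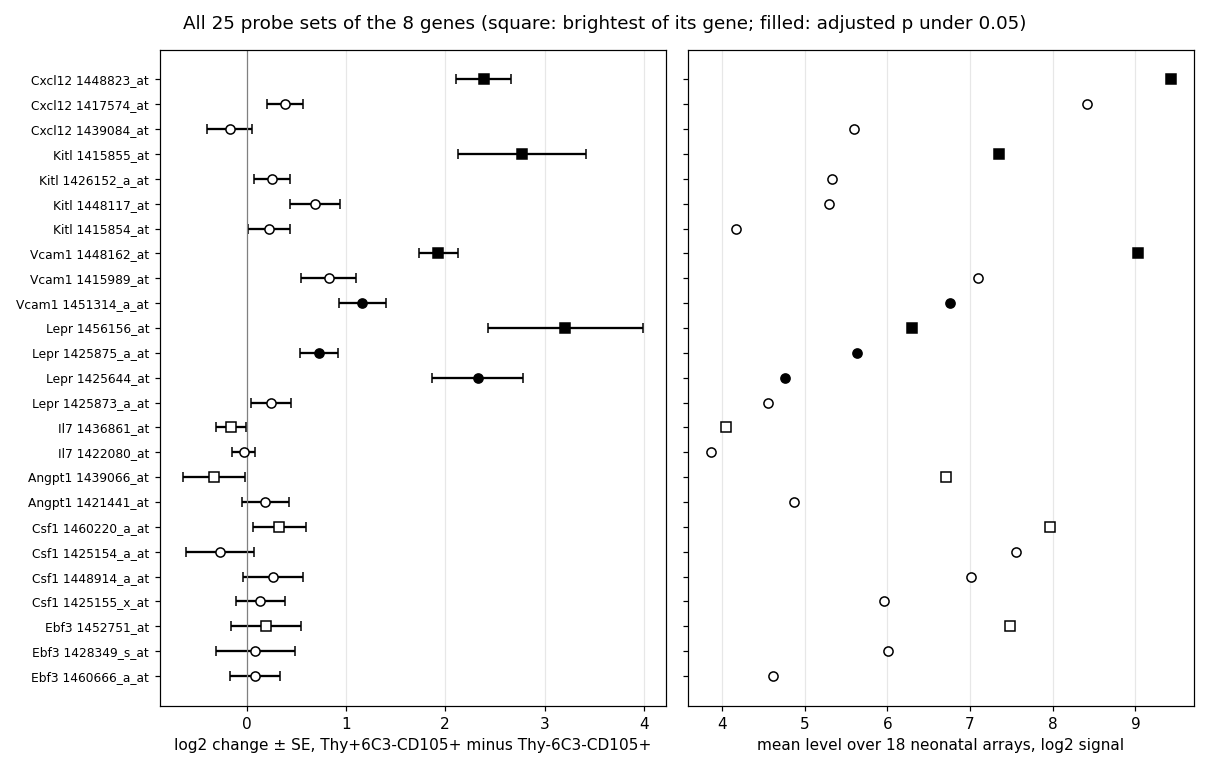
Log2 change ± SE from Thy-6C3-CD105+ to Thy+6C3-CD105+ (left x axis) and mean level over the 18 neonatal arrays (right x axis, log2 signal) of all 25 probe sets of the niche genes (y axis). Squares are the brightest probe set of each gene and filled symbols have a limma adjusted p under 0.05 over 45037 probe sets. Lepr has 3 filled probe sets and Vcam1 2, whereas for Cxcl12 and Kitl the brightest alone is filled.

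Angpt1, the ligand of TIE2, followed another order. Cells negative for Thy and 6C3 had 7.65, 7.10 and 7.62 with CD105 and 7.65, 6.60 and 7.34 without it. Thy+6C3-CD105+ cells had 6.74, 7.24 and 7.41, and these 3 populations overlapped. In Thy-6C3+CD105+ it was at 6.92, 6.34 and 6.31, while Thy+6C3-CD105- cells had 6.42, 5.96 and 6.96. Thy-6C3+CD105- was lowest with 5.26, 5.89 and 5.32, near the adult array at 5.27.

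In the 6C3 step of CD105- cells, which sets Thy-6C3+CD105- against Thy-6C3-CD105-, Angpt1 fell by 1.70 on the log2 scale (SE 0.31, adjusted p = 0.00401). It was the only 1 of the 8 genes called there, against 2.74% of all genes. The call held with each array left out in turn, the change being -1.48 where it was smallest. It was lost when arrays were grouped by title, which leaves 1 array in Thy-6C3+CD105- (-1.94). The fits on the high (-2.04) and low (-1.71) poly-A arrays, each with 1 array in a compared population, lost it as well. Over all other settings the change ran from -2.04 to -0.84. In the 6C3 step of CD105+ cells the change was -0.93 ± 0.31 (adjusted p = 0.25), and none of the 8 genes was called there by limma, against 1.36% of all genes, while 2 had an unadjusted p under 0.05, against 7.61%. The second probe set of Angpt1, 1421441_at, had a mean level of only 4.87 and changed by 0.02 ± 0.23 where the brighter one fell.

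Csf1, the macrophage and osteoclast growth factor, varied little. It was at 8.76, 7.97 and 8.68 in Thy+6C3-CD105- and at 8.30, 8.13 and 8.06 in Thy+6C3-CD105+. The lowest population, Thy-6C3+CD105-, had 8.04, 6.94 and 7.58, and the others lay between 7.54 and 8.21, with the adult array at 7.46. No step passed for its brightest probe set, the nearest being Thy+6C3-CD105- above Thy-6C3+CD105- by 0.95 ± 0.27 (adjusted p = 0.0739). Other probe sets of Csf1 did pass in the Thy step of CD105- cells: 1425154_a_at rose by 1.15 ± 0.34 and 1425155_x_at by 0.94 ± 0.25, where the brightest changed by 0.65 ± 0.27 (adjusted p = 0.0899). For 1425154_a_at the 3 arrays of Thy+6C3-CD105- were at 7.75, 7.96 and 9.27, the last being replicate 3, and those of Thy-6C3-CD105- at 7.15, 7.50 and 6.88. In that step 12.3% of all probe sets passed, and 4 of the 25 of the niche genes did.

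Ebf3, the transcription factor of marrow reticular cells, was at 7.62, 8.13 and 8.03 in Thy+6C3-CD105+ and at 7.20, 7.90 and 8.35 in Thy+6C3-CD105-. The Thy- populations other than Thy-6C3+CD105- ranged from 6.91 to 7.97. Thy-6C3+CD105- was at 7.10, 5.66 and 7.20, and the adult array at 5.34. Ebf3 therefore overlapped between all neighbouring populations. Its change in the Thy step was 0.20 ± 0.35 in CD105+ cells (adjusted p = 0.893), with a 95% interval from -0.55 to 0.94, and the difference of 1.17 ± 0.35 between Thy+6C3-CD105- and Thy-6C3+CD105- missed the threshold (adjusted p = 0.0983). That difference passed without replicate 1 of Thy+6C3-CD105- (1.47, adjusted p = 0.0406) or replicate 3 of Thy-6C3+CD105- (1.44, adjusted p = 0.0499). It was smaller without the low replicate 2 of Thy-6C3+CD105- (0.67, adjusted p = 0.464), with the mean of probe sets (0.37, adjusted p = 0.402) and when arrays were grouped by title (0.71, adjusted p = 0.679), and was 0.098 on the low poly-A arrays, 1 against 1.

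Il7, the lymphoid cytokine, lay between 3.60 and 4.34 on all 18 neonatal arrays and at 4.01 on the adult array, below the median gene throughout. Its largest population difference was 0.37, from a mean of 4.21 in Thy-6C3-CD105+ cells down to 3.84 in Thy-6C3+CD105- cells. No comparison of populations called Il7 by limma, and the part of its low signal in this was not tested.

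Read by comparison, the Thy step in CD105+ cells called 4 of the 8 genes, all higher, against 6.66% of all genes called in either direction and 4.03% called higher. The median log2 change was 1.13 over the 8 genes and -0.02 over all genes. The Thy step in CD105- cells called Cxcl12 and Vcam1, 2 of 8 against 18% of all genes, a share near that background. All genes had a median change of 0.13 in that step, so changes there should be read relative to that shift. Thy+6C3-CD105+ against Thy-6C3+CD105+ called Cxcl12 and Vcam1, 2 of 8 against 2.59%, and the corresponding CD105- comparison called Vcam1, 1 of 8 against 2.24%. The comparisons that use Thy+6C3-CD105+ share its 3 arrays.

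**Figure D3:**
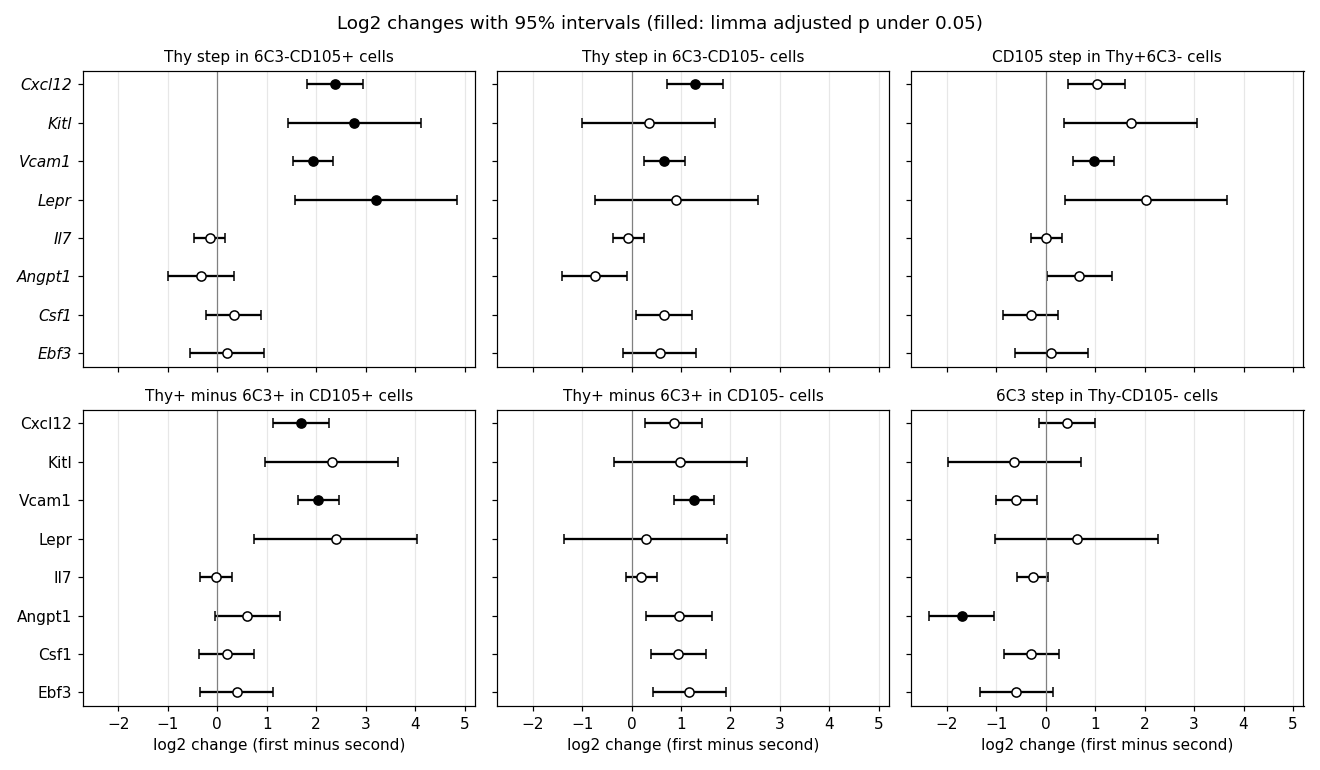
Log2 change (x axis) of the 8 niche genes (y axis) in 6 comparisons of populations, first minus second, with 95% intervals, filled where the limma adjusted p over all genes is under 0.05. Cxcl12, Kitl, Vcam1 and Lepr are filled in the Thy step of CD105+ cells, whereas in the 6C3 step of CD105- cells Angpt1 alone is filled, at -1.70.

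The CD105 steps asked whether CD105 marks a difference at the same Thy and 6C3 state. In Thy+6C3- cells 1 of 8 was called, against 1.02% of all genes, and 4 of 8 had CD105+ arrays wholly above CD105- arrays, against 9.52%. Those were Cxcl12, Kitl, Vcam1 and Lepr, with changes of 1.03 ± 0.27, 1.72 ± 0.64, 0.97 ± 0.19 and 2.03 ± 0.78. Without the low replicate 3 of Thy+6C3-CD105- the change was 0.97 for Kitl (adjusted p = 0.610) and 0.85 for Lepr (adjusted p = 0.663). In Thy-6C3- cells none of 8 was called by limma, against 0.00550% of all genes, and none had an unadjusted p under 0.05, against 1.75%. In Thy-6C3+ cells limma called none, against 0.00% of all genes, and 2 of 8, Angpt1 with 1.03 ± 0.31 and Ebf3 with 0.88 ± 0.35, had an unadjusted p under 0.05 against 2.74%.

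The CD105 steps were also compared with each other, first that of Thy+ with that of Thy-6C3- cells. The difference of the CD105 steps was 1.27 ± 0.28 for Vcam1 (adjusted p = 0.0673), 1.11 ± 0.38 for Cxcl12 (adjusted p = 0.233), 2.43 ± 0.90 for Kitl and 2.30 ± 1.10 for Lepr. None of the 8 passed by limma, against 0.269% of all genes, and 3 had an unadjusted p under 0.05, against 16.7%. None passed either for Thy-6C3+ against Thy-6C3- cells, against 0.00% of all genes and with no unadjusted p under 0.05 (2.98% of all genes), or for Thy+6C3- against Thy-6C3+ cells, against 0.214% and with 2 unadjusted (5.46% of all genes). A CD105 difference confined to Thy+ cells was therefore not shown for these genes.

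Receptors and other partners of the niche factors were taken as a list of 15 genes, of which 14 were measured. In the Thy step of CD105+ cells 3 of 14 rose and none fell, against 4.03% and 2.63% of all genes. They were Dpp4, a protease that cleaves CXCL12 (2.02 ± 0.25, adjusted p = 3.1e-05), Angpt2, which competes with angiopoietin 1 at TIE2 (1.47 ± 0.23, adjusted p = 0.000436), and Tek, which encodes TIE2 (1.11 ± 0.17, adjusted p = 0.000349). In the Thy step of CD105- cells 7 of 14 rose and none fell, against 10.5% and 7.45% of all genes. Among the 7 were Tek (1.51 ± 0.17), Dpp4 (1.41 ± 0.25), Csf1r (1.21 ± 0.35) and Itgb7 (1.07 ± 0.36). The median change of the list was 0.46 there and 0.25 in CD105+ cells, beside 0.13 and -0.02 over all genes.

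The partner levels were mostly low. Tek was at 6.10, 5.70 and 6.06 in Thy+6C3-CD105+ and at 6.50, 6.17 and 6.49 in Thy+6C3-CD105-, against 4.68 to 5.12 on the 12 Thy- arrays. All of these lie under the median gene, in cells gated as Tie2-. Cxcr4, the receptor of CXCL12, was low on all 18 arrays, yet highest in Thy+6C3-CD105+. It was at 4.54, 4.64 and 4.89 there and from 3.81 to 4.40 on the other neonatal arrays. Kit means ranged from 5.28 to 5.96. The decoy receptor Ackr3, which scavenges CXCL12, was well above the median gene, with means from 10.26 in Thy+6C3-CD105- to 11.35 in Thy-6C3+CD105-, and the first differed from the second by -1.09 ± 0.27 (log2, adjusted p = 0.0376).

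In the other comparisons the partners moved as follows. Thy+6C3-CD105+ against Thy-6C3+CD105+ called 5 of 14, all higher, against 1.71% of all genes called higher. Dpp4 was at 1.94 ± 0.25, Angpt2 at 1.46 ± 0.23, Itga4 at 1.23 ± 0.31 and Tek at 1.16 ± 0.17. The CD105- counterpart called 2 higher, Tek and Dpp4, and 1 lower, Ackr3, against 0.918% and 1.32% of all genes. Itga4, which encodes the α4 integrin that binds VCAM1, was the 1 partner called in the CD105 step of Thy+ cells (1.35 ± 0.31, adjusted p = 0.0426), against 1.02% of all genes. Neither 6C3 step called any of the 14 by limma, against 1.36% of all genes with CD105 and 2.74% without it.

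Regulators and markers of marrow reticular stroma formed a list of 16 genes, all measured, and they moved in both directions. In the Thy step of CD105+ cells 5 rose and 2 fell, against 4.03% and 2.63% of all genes. Ebf2, a paralog of Ebf3, rose by 1.66 ± 0.40 (adjusted p = 0.0134), Pdgfrb, a receptor of mural cells, by 1.52 ± 0.44 (adjusted p = 0.0482) and Prrx1, a limb mesenchyme transcription factor, rose to a mean of 11.5 (adjusted p = 0.000436). Foxc1, a transcription factor that maintains CXCL12-abundant reticular cells, went the other way, with -1.78 ± 0.27 (adjusted p = 0.000324). Its mean was 7.77 in Thy+6C3-CD105+ cells against 9.55 in their Thy- counterpart, so the population highest in Cxcl12 was among the lowest in Foxc1.

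The same list gave 4 higher and 2 lower in the Thy step of CD105- cells, against 10.5% and 7.45% of all genes. Gas6 was at 1.66 ± 0.20, Nes at 1.29 ± 0.21, Ebf2 at 1.26 ± 0.40 and Foxc1 at -1.87 ± 0.27. Gas6, a ligand of TAM receptors, was also higher in both 6C3 steps (1.02 ± 0.20 and 1.17 ± 0.20), and Snai2 was lower in both (-0.81 ± 0.19 and -1.09 ± 0.19). Against the 6C3+ populations Foxc1 was lower in Thy+ cells by both comparisons, with -1.72 ± 0.27 among CD105+ and -1.21 ± 0.27 among CD105- cells, and no gene of the list was called higher. The list medians in the Thy steps were 0.27 and -0.05, beside -0.02 and 0.13 over all genes.

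Other growth factors and cytokines of the niche were taken as a list of 28 genes, of which 23 were measured. In the Thy step of CD105+ cells Igf1, encoding insulin-like growth factor 1, was the 1 of 23 called (1.53 ± 0.26, adjusted p = 0.000847), against 6.66% of all genes. In CD105- cells 2 rose and 3 fell, against 10.5% and 7.45% of all genes. Tnfrsf11b, which encodes the RANKL decoy osteoprotegerin, was at -4.29 ± 0.86 in that step and Cxcl10 at -3.20 ± 0.96. Igf1 rose there by 1.57 ± 0.26 and in the 6C3 step of CD105- cells by 1.37 ± 0.26. Wnt5a, a Wnt ligand, was 2.64 ± 0.65 higher in Thy+6C3-CD105+ than in Thy-6C3+CD105+ (adjusted p = 0.0359). Il6, which also acts on blood progenitors, had population means of at least 3.81, and Csf3 means from 4.84 to 5.17, both under the median gene throughout.

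Markers of other cell types were set beside these results. Of 11 pericyte and smooth muscle markers, 9 rose and 1 fell in the Thy step of CD105+ cells, against 4.03% and 2.63% of all genes. The list mean ran from 9.76 to 9.93 on the arrays of Thy+6C3-CD105+ against 7.81 to 8.44 on all other neonatal arrays. Notch3 had 3.60 ± 0.42, Rgs5 3.36 ± 0.27 and Kcnj8 3.06 ± 0.22 in that step, and Cspg4 was the 1 that fell (-1.54 ± 0.30). This list was highest in the population where Cxcl12, Kitl, Vcam1 and Lepr were highest, and its part in those results was not tested.

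Of 8 tendon and fibrous markers 6 rose in each Thy step, against 4.03% of all genes in CD105+ cells and 10.5% in CD105- cells. Their list means were 11.22 to 11.42 on Thy+ arrays, 10.17 to 10.84 on 6C3+ arrays and 9.36 to 9.89 on the rest. This list did not separate the Thy+ populations by CD105, whose ranges overlapped. Of 10 chondrocyte markers all 10 fell in both Thy steps, and of 8 immediate early genes, a class induced by stress and cell handling, 6 fell in that of CD105+ cells and 8 in that of CD105- cells. Among all genes 2.63% fell in the Thy step of CD105+ cells and 7.45% in that of CD105- cells. Of 9 osteoblast markers 7 were measured, of which 1 rose and 3 fell in the Thy step of CD105+ cells (median change -1.40) and 5 fell and none rose in that of CD105- cells (median -2.80). The part of these lists in the Thy steps of the niche genes was not tested.

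Endothelial markers gave means of 6.29 to 6.47 on the Thy+6C3-CD105+ arrays and 5.67 to 6.20 elsewhere, with 9 of 11 under the median gene. Of these 11, 3 were called higher in the Thy step of CD105+ cells, against 4.03% of all genes, led by Esam (2.32 ± 0.18). Myeloid and leukocyte markers had means of 4.97 to 5.81, with 11 of 12 under the median gene and none called in the Thy step of CD105+ cells by limma. All 4 measured erythroid and all 7 skeletal muscle markers were under the median gene. Keratinocyte markers stood out on the arrays of Thy+6C3-CD105-, with list means of 6.44 to 7.04 against 5.33 to 5.97 on other neonatal arrays, and their part in the values of that population was not tested. Array means of adipocyte markers were 6.91 to 7.31 in Thy+6C3-CD105+ and 5.66 to 6.78 elsewhere among neonatal arrays.

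**Figure D4:**
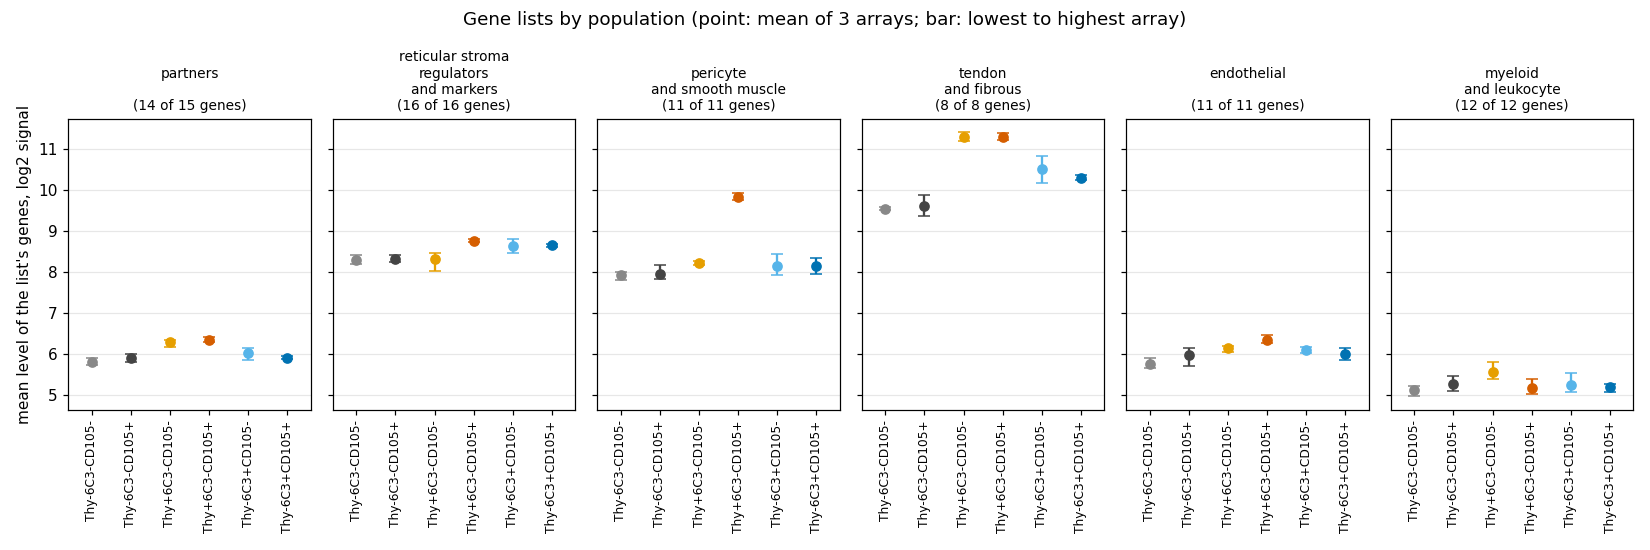
Mean level of the measured genes of 6 lists (y axis, log2 signal) by population (x axis), with points for the mean of 3 arrays and bars from the lowest to the highest array. Pericyte and smooth muscle markers are at 9.76 to 9.93 in Thy+6C3-CD105+ and at 8.44 or less elsewhere, tendon and fibrous markers are high in both Thy+ populations, and endothelial and myeloid lists stay low.

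The 4 genes highest in Thy+6C3-CD105+ moved together over the 18 arrays, with Pearson correlations between pairs from 0.70 (Vcam1 and Lepr) to 0.82 (Kitl and Vcam1). Over the 15 arrays of the other 5 populations the same pairs gave 0.31 to 0.61, so much of the relation came from that one population. Il7 correlated with each of these 4 between -0.05 and 0.02. These are descriptions over arrays that share populations, not tests.

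The genes most like each niche factor over the 18 arrays, among 9091 genes above the median level, were listed by Pearson correlation. For Vcam1 they were Twist2 (0.96), Adam22 (0.96) and Rap2a (0.95), and for Kitl they were Arhgap28 (0.95), Slit2 (0.93) and Notch3 (0.91). Notch3 is on the list of pericyte markers. For Cxcl12 they were Fhod3 (0.93), Ap2s1 (0.91) and Myl9 (0.91), and for Lepr Il13ra1 (0.91), Adam10 (0.91) and Tbck (0.90). Without the 3 Thy+6C3-CD105+ arrays the leading gene had 0.87 for Vcam1, 0.91 for Kitl, 0.89 for Cxcl12 and 0.88 for Lepr. The leading genes were picked on all 18 arrays, so high values on the remaining arrays were favoured by the choice. Angpt1 was most like Hpgd (0.83), Lgals3bp (0.83) and Socs3 (0.81), Csf1 like Tbc1d9b (0.92) and Ebf3 like Rfwd3 (0.88). For Il7, flat and dim, the highest was 0.76 with Stx5a.

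Poly-A control transcripts, which are spiked into RNA before labelling, divided the neonatal arrays into 11 with high and 7 with low signal, with both kinds in every population. Within the high arrays the Thy step in CD105+ cells was 2.37 for Cxcl12, 1.90 for Vcam1, 3.16 for Kitl and 3.59 for Lepr. Within the low arrays it was 2.42, 1.99, 2.00 and 2.44 in the same order, with 1 array against 1. Direction and size were thus alike on both sides of this split for Cxcl12 and Vcam1. The smaller fit of the high set called Cxcl12 and Vcam1 (limma adjusted p = 0.00243 and 0.00158), but not Kitl or Lepr (adjusted p = 0.0558 and 0.123). For the low set log2 changes alone are given here. The change of Angpt1 in the 6C3 step of CD105- cells was -2.04 in the high and -1.71 in the low arrays. In that Angpt1 step both fits leave 1 array in a compared population.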

How the data were processed

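The deposited values are log2 signals for 45101 probe sets on 19 Affymetrix mouse genome arrays, from RNA amplified in 2 rounds, per the labels' protocols. The step from scans to the log2 values the authors deposited, which ran from 2.55 to 14.6, is not stated in the sources used here. Array medians ran from 5.60 to 6.02, so the arrays were quantile normalized together with limma 3.58.1 in R 4.3.3. The 64 control probe sets were left out. Gene names came from the platform annotation given with the series: 34945 probe sets had 1 symbol, 932 several and 9160 none, and the brightest single-symbol probe set stood for each gene.

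One mean per population was fitted to the 18 neonatal arrays with lmFit, contrasts and eBayes with a trend, with 12 residual and 5.38 prior degrees of freedom. Tests were two-sided, and a gene was called at a Benjamini-Hochberg adjusted p under 0.05 over all 18193 genes of its contrast. Folds are 2 to the power of the log2 change. All 8 members are named, and from each list up to 4 called genes per comparison with the largest change and no overlap between arrays, for the partner, reticular and growth factor lists, with other genes of the lists named after their values were seen. Marker genes named were also picked after their values were seen. The members and lists were chosen with earlier results of these data known. Replicate numbers were not used to pair arrays in the main fit. Over all 45 same-number pairs of arrays the correlations of deviations ran from -0.56 to 0.67, with 19 above 0.1. Their mean was 0.0126, beside -0.00522 for pairs of other numbers. These values do not settle whether the numbers pair arrays. The fit was tested on simulated data. Arrays carry no counts, and 3 arrays per population limit the precision.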

Additional observations from a re-analysis of the deposited data

How the results depend on the processing

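The direction of every called niche gene held under all alternatives run, with no sign reversed. The calls of Cxcl12 and Vcam1 in the Thy step of CD105+ cells passed with each array left out in turn. They passed in every alternative except the fit on the 7 low poly-A arrays, where this step sets 1 array against 1. Counts of niche genes called and of all genes called that moved by more than 1.5 times follow; the cause was not tested for any of them. The counts to compare with are 4 niche genes and 1211 genes in the Thy step of CD105+ cells, 2 and 3271 in that of CD105- cells, 0 and 247 in the 6C3 step of CD105+ cells, 1 and 498 in that of CD105- cells, 0 and 1 in the CD105 step of double negative cells (Thy-6C3-), 1 and 185 in that of Thy+ cells, 0 and 0 in that of 6C3+ cells, 2 and 471 for Thy+ against 6C3+ with CD105, 1 and 407 without CD105, 0 and 49 for the difference of the CD105 steps of Thy+ and Thy-6C3- cells, 0 and 39 for that of Thy+ and 6C3+ cells, and 4 and 1845 in the F-test.

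On the values as deposited, niche genes called were 0 in the Thy step without CD105, 2 in the CD105 step of Thy+ cells, 0 for Thy+ against 6C3+ without CD105 and 1 for the first difference. With the mean of probe sets, niche genes called were 0 in the CD105 step of Thy+ cells and 4 for Thy+ against 6C3+ with CD105, and genes called were 2 and 1 in the CD105 steps of Thy-6C3- and 6C3+ cells and 77 for the first difference. That setting took the Thy step with CD105 to 0.87 for Cxcl12, 0.98 for Kitl, 1.31 for Vcam1 and 1.63 for Lepr, all still called. With genes above the median level only, which drops Il7, Lepr and Angpt1, niche genes called were 0 in the 6C3 step without CD105 and 2 for Thy+ against 6C3+ without CD105, and genes called were 0 and 45 in the CD105 steps of Thy-6C3- and Thy+ cells, 294 for Thy+ against 6C3+ with CD105, and 12 and 8 for the differences.

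With array weights, which gave replicate 3 of Thy+6C3-CD105- the lowest weight of 0.174, niche genes called were 4 in the Thy step without CD105, 1 in the 6C3 step with CD105, 3 in the CD105 step of Thy+ cells, 5 for Thy+ against 6C3+ with CD105 and 1 for the first difference. Genes called were then 2889 in the Thy step with CD105, 652 in the 6C3 step with CD105, 2 and 2567 in the CD105 steps of Thy-6C3- and Thy+ cells, 1500 for Thy+ against 6C3+ with CD105, 645 and 73 for the differences and 3898 in the F-test. With the replicate number as a block, 307 genes were called in the CD105 step of Thy+ cells and 4 niche genes for Thy+ against 6C3+ with CD105. The numbers share no stated origin, and 8 of 18 arrays correlated best with an array of their own number. With the compared populations only, niche genes called were 1 in the Thy step without CD105, 0 in the CD105 step of Thy+ cells, and 4 and 0 for Thy+ against 6C3+ with and without CD105; genes called were 1182 in that Thy step, 381 and 204 in the 6C3 steps, 0 and 68 in the CD105 steps of Thy-6C3- and Thy+ cells, and 816 and 33 for Thy+ against 6C3+.

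Grouping by title gave 0 niche genes and 167 genes in the 6C3 step without CD105, 0 and 66 for Thy+ against 6C3+ without CD105, and 17 genes for the second difference; its lone Thy-6C3+CD105- array was assumed to vary like the other groups. With the poly-A set as a block, niche genes called were 4 in the Thy step without CD105 and 2 for Thy+ against 6C3+ without CD105, where 615 genes were called. On the high poly-A arrays alone, niche genes called were 2 and 0 in the Thy steps with and without CD105, 0 in the 6C3 step without CD105, 0 in the CD105 step of Thy+ cells, 0 for Thy+ against 6C3+ without CD105 and 2 in the F-test. Genes called there were 761 and 479 in the Thy steps, 87 and 69 in the 6C3 steps, 0 and 59 in the CD105 steps of Thy-6C3- and Thy+ cells, 219 and 184 for Thy+ against 6C3+, 0 for both differences and 708 in the F-test. The Thy step of Lepr without CD105, not called, was -0.27 there, and that of Kitl ran from -0.24 to 1.09 over the arrays left out. The low poly-A arrays were added after seeing the data. Their values are given as log2 changes, because that fit leaves 1 array in some populations. That fit is still 1 of the 10 other settings in the counts of calls lost.

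Leaving out each array in turn gave 2 to 4 niche genes and 781 to 1623 genes in the Thy step with CD105, 1 to 3 and 1549 to 4218 without it, 105 to 368 and 359 to 786 genes in the 6C3 steps, 0 to 2 genes in the CD105 step of double negative cells, 0 to 2 niche genes and 78 to 733 genes in that of Thy+ cells, 2 to 4 and 291 to 580 for Thy+ against 6C3+ with CD105, 1 to 2 and 221 to 803 without it, 0 to 1 and 25 to 104 for the first difference, 13 to 43 genes for the second, and 3 to 5 niche genes and 1471 to 2016 genes in the F-test. Il7 lay at the bottom of the range, and the second probe set of Angpt1 and the other probe sets of Kitl were dim. The part of low signal in their results was not tested.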
